A study of Arabidopsis thaliana with 12 samples.

Results

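Per-1 and Col-0 are natural accessions of Arabidopsis thaliana, and their first leaves were compared by RNA sequencing. The series deals with the larger size of Arabidopsis hybrids, in which both accessions serve as parents, and the comparison asks how these parental leaves differ across gene functions. It used the 6 libraries titled Per-1 replicates 1 and 2 and Col-0 replicates 1 to 4, of 12 libraries in the series. The titles and genotype labels were followed, although the series' design text names Ler-1 where the labels have Per-1 and speaks of duplicates where the labels give 4 Col-0 libraries. Which accession is behind the Per-1 label was not tested. Leaves came from seedlings at day 14, raised on Murashige and Skoog medium that held 1% sucrose. Accession was the sole labelled difference between the groups. Whether the replicates are separate plants is not given in the labels. The fit drew on all 12 libraries, and its p-values rest on how far replicate libraries of the series differ, which may be technical. Of 34133 identifiers in the files, 16911 genes had at least 1 FPKM in at least 2 of the 6 libraries and were tested on log2(FPKM + 1). FPKM scales the fragments of a gene by transcript length and library size.

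As background, accessions of Arabidopsis often differ in genes of flowering time and defence. The floral repressor FLC sets the need for a winter before flowering. Glucosinolates are sulfur-rich defence compounds whose side chains vary between accessions, and myrosinases split them when a leaf is chewed. NLR proteins are intracellular immune receptors, often encoded in clusters of near copies that differ between accessions, and the salicylic acid pathway acts downstream of many of them.

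Values of single genes are FPKM in the order of the replicate numbers, followed by the log2 difference (Per-1 minus Col-0) on the log2(FPKM + 1) scale ± its standard error and the Benjamini-Hochberg adjusted p from limma. A gene was called at an adjusted p under 0.05. "Overlapping" after a value marks a gene that shares positions with another annotated gene. The library kit does not mark strand, so reads of the overlapping genes cannot be told apart. A further adjusted p followed by the name of an alternative is given where quantile normalization, a fit of the 6 libraries alone, no filter on low values or, in genes not marked as outside the strict set, leaving out a Col-0 pair ended the call. Where leaving out a single library ended a call, a further value beginning with "up to" gives the highest adjusted p reached and the libraries that reached past the threshold. For a gene listed at 0 in every library of a group no log2 difference is given. In every called gene whose values are given in the text, both Per-1 values lay outside the range of the 4 Col-0 values. The same held for 4366 of all 4368 called genes, so it comes with the call and is no further support.

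The Col-0 libraries were not uniform, and the labels do not say what set them apart. Replicates 1 and 2 lay close together, and so did replicates 3 and 4. The median absolute log2 difference was 0.13 to 0.14 within each Col-0 pair, 0.14 between the Per-1 libraries, 0.23 to 0.26 between libraries of different Col-0 pairs, and 0.31 to 0.36 between Per-1 and Col-0 libraries. Between the Col-0 pairs 2560 genes were called (15.1% of those tested), and 1498, 1089, 1395 or 1368 without Col-0 replicate 1, 2, 3 or 4. RBCS1A (AT1G67090) encodes a Rubisco small subunit. Its values were 0 in both of Col-0 replicates 1 and 2, whereas the other Col-0 pair had 19509 and 19500 FPKM and Per-1 had 18115 and 17477 FPKM. Genes above 0 numbered 21091 to 21513 per library, and absolute depth is unknown because the values are not counts.

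Between Per-1 and all 4 Col-0 libraries 4368 genes were called, of which 1026 were higher in Per-1 (6.07% of those tested) and 3342 lower (19.8%). The median log2 difference over all tested genes was -0.19, and the single values and list medians given here are to be read against it. With median-ratio scaling, which moved that median to -0.01, 1700 genes were higher and 1611 lower, and quantile normalization gave 1587 and 1537. Without Per-1 replicate 1 or 2 the count of called genes was 1872 or 1892. A stricter set is therefore used throughout, called the strict set. Its genes were called in the full comparison, called in the same direction against each Col-0 pair in a fit of all 12 libraries that treats the pairs as separate groups, and still called after median-ratio scaling. It held 828 higher genes (4.90%) and 1594 lower genes (9.43%), of which 1104 in all differed by at least 1 on the log2 scale. Its first condition is the call without scaling, which carries the shift of -0.19. The scaling condition left all 828 higher genes in place and took the lower ones from 2298 to 1594. The excess of lower genes in the strict set thus depends on the scaling, and with median-ratio scaling alone there was none. "Outside the strict set" after a value marks a called gene that failed at least 1 of these conditions. Every count of list or cluster members is to be read against the share of all tested genes. These shares are 4.90% and 9.43% for the strict set, 6.07% and 19.8% for the full comparison and 15.1% between the Col-0 pairs. Many lists lie near them.

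**Figure D1:**
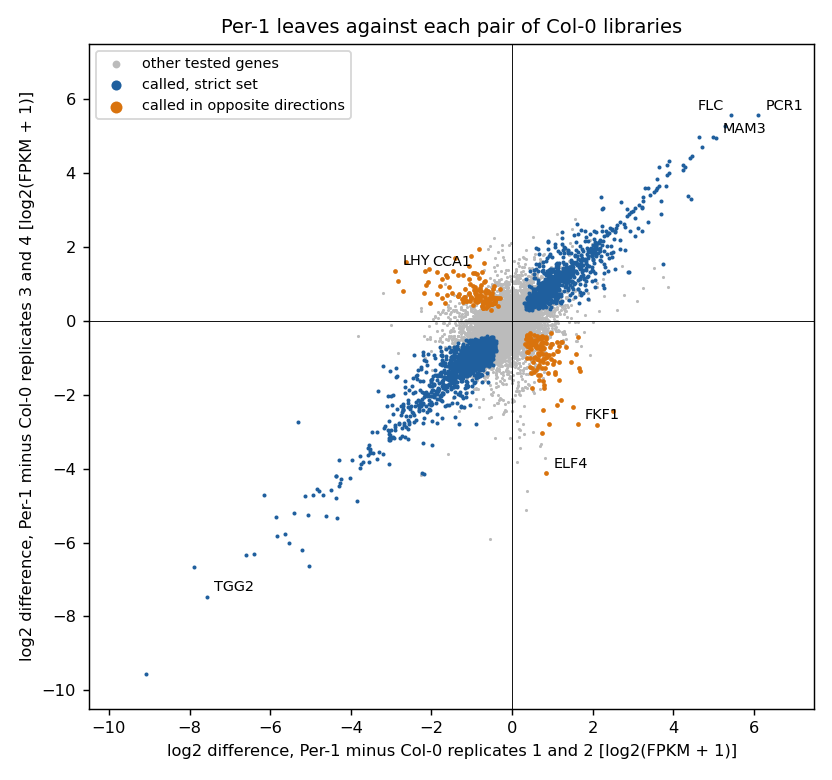
Log2 difference of each tested gene between Per-1 and Col-0 replicates 1 and 2 (x axis) and between Per-1 and Col-0 replicates 3 and 4 (y axis), on the log2(FPKM + 1) scale. Blue points are the 2422 genes of the strict set, which lie along the diagonal, and orange points are the 248 genes called in opposite directions against the Col-0 pairs, among them the clock genes LHY, CCA1, ELF4 and FKF1.

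Flowering repressors and activators differed between the accessions. FLC (AT5G10140), the MADS-box repressor that vernalization silences, was at 0.26, 0, 0 and 0.04 FPKM in Col-0 and 53.7 and 42.4 in Per-1 (log2 difference 5.51 ± 0.14, adjusted p = 4.7e-09, overlapping). SOC1 (AT2G45660), an activator that FLC represses, was at 42.6, 43.8, 39.2 and 41 FPKM in Col-0 and 9.61 and 15.7 in Per-1 (log2 difference -1.68 ± 0.17, adjusted p = 9.5e-05). The groups did not overlap for either gene. Of 27 flowering genes tested, 1 was higher and 5 lower in the strict set, against 4.90% and 9.43% of all tested genes. The relatives of FLC were lower in Per-1. MAF5 (AT5G65080) was at 4.09, 6.36, 8.51 and 6.55 FPKM in Col-0 and 1.66 and 1.84 in Per-1 (log2 difference -1.39 ± 0.22, adjusted p = 0.0015). MAF2 (AT5G65050), a repressor of flowering at low temperature, was at 12.4, 10.8, 14.7 and 13.3 FPKM in Col-0 and 7.6 and 6.76 in Per-1 (log2 difference -0.75 ± 0.14, adjusted p = 0.0048, up to 0.058 without Per-1 replicate 2). FLM (AT1G77080), also known as MAF1, was at 13.6, 14.3, 16.8 and 16.4 FPKM in Col-0 and 9.56 and 12.4 in Per-1 (log2 difference -0.45 ± 0.14, adjusted p = 0.038, up to 0.32 without Per-1 replicate 1 or Col-0 replicate 3 or 4, outside the strict set, 0.22 with quantile normalization, 0.072 with the 6 libraries alone). MAF4 (AT5G65070) had 0.92 to 1.66 FPKM in Col-0 and was listed at 0 throughout Per-1. VRN2 (AT4G16845), a Polycomb protein that keeps FLC silent after cold, was at 10.1, 12, 10.6 and 10.6 FPKM in Col-0 and 6.5 and 7.22 in Per-1 (log2 difference -0.59 ± 0.10, adjusted p = 0.0026).

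Other regulators of flowering stood as follows. TEM1 (AT1G25560), a repressor of the florigen gene FT, was at 59.1, 44.1, 78.5 and 23 FPKM in Col-0 and 199.6 and 195 in Per-1 (log2 difference 2.06 ± 0.59, adjusted p = 0.030, up to 0.14 without Per-1 replicate 1 or 2 or Col-0 replicate 2 or 4, outside the strict set), above every Col-0 library. FT itself was under the filter on low values, at 0.72, 0.65, 0.20 and 0.15 FPKM in Col-0 and 0 and 0.05 in Per-1. SVP (AT2G22540), a partner of FLC, was at 63.3, 65.8, 57.1 and 54.7 FPKM in Col-0 and 68.6 and 77.8 in Per-1 (log2 difference 0.28 ± 0.11, adjusted p = 0.085), which did not pass the test. FRI (AT4G00650), the activator of FLC whose alleles divide many winter and summer annuals, was at 2.75, 2.75, 2.72 and 2.35 FPKM in Col-0 and 2.56 and 2.5 in Per-1 (log2 difference -0.04 ± 0.11, adjusted p = 0.79, overlapping). Both Per-1 values of FRI lay inside the Col-0 range. Of the genes of the change from juvenile to adult leaves 15 were tested. In the strict set 3 were lower and 0 higher, against 9.43% and 4.90% of all tested genes. They were SPL3 (AT2G33810) (log2 difference -1.06 ± 0.13, adjusted p = 3.7e-04, overlapping), SPL13A (AT5G50570) (log2 difference -0.9 ± 0.23, adjusted p = 0.019, up to 0.19 without Per-1 replicate 2, overlapping, 0.053 with the 6 libraries alone) and AGO7 (AT1G69440), the Argonaute protein of trans-acting small RNAs that hold back adult traits (log2 difference -0.56 ± 0.14, adjusted p = 0.019, up to 0.13 without Per-1 replicate 1 or 2, 0.062 with quantile normalization, 0.052 with Col-0 replicates 3 and 4 left out). SPL3 and SPL13A are targets of the juvenile microRNA miR156.

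Genes of glucosinolate side chains differed in both directions. In the aliphatic branch, which starts from methionine, 30 genes were tested, with a median of 0.34 against -0.19 over all tested genes. In the strict set 6 were higher and 3 lower, against 4.90% and 9.43% of all tested genes. Chain elongation held the largest rise. MAM3 (AT5G23020), which makes the longer chains, was at 0.39, 0.29, 0.41 and 0.46 FPKM in Col-0 and 46.5 and 40.3 in Per-1 (log2 difference 5.0 ± 0.11, adjusted p = 1.9e-09). Its neighbour MAM1 (AT5G23010), which makes short chains, was at 62.7, 77.4, 67.2 and 84.8 FPKM in Col-0 and 39.5 and 33.5 in Per-1 (log2 difference -0.97 ± 0.23, adjusted p = 0.014, up to 0.12 without Per-1 replicate 1 or 2, outside the strict set, 0.074 with quantile normalization). The Col-0 and Per-1 values did not overlap for either gene. The isomerase subunits that act after the MAM enzymes were higher in Per-1: IPMI1 (AT3G58990) was at 16.8, 18.5, 14.7 and 19.8 FPKM in Col-0 and 48.2 and 34 in Per-1 (log2 difference 1.18 ± 0.22, adjusted p = 0.0047, up to 0.067 without Per-1 replicate 1). IPMI2 (AT2G43100) was at 29, 38.1, 36.9 and 43.2 FPKM in Col-0 and 78.8 and 66.9 in Per-1 (log2 difference 0.98 ± 0.24, adjusted p = 0.017, up to 0.13 without Per-1 replicate 1 or 2). CYP79F2 (AT1G16400), which starts core synthesis from long-chained methionine derivatives, was at 2.75, 3.47, 2.42 and 2.29 FPKM in Col-0 and 6.48 and 4.98 in Per-1 (log2 difference 0.85 ± 0.15, adjusted p = 0.0034, up to 0.053 without Per-1 replicate 1). GSTF11 (AT3G03190), a glutathione transferase of the core pathway, was at 2.85, 2.95, 1.59 and 3.43 FPKM in Col-0 and 10.1 and 7.7 in Per-1 (log2 difference 1.44 ± 0.25, adjusted p = 0.0026, overlapping).

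Side-chain modification split. AOP2 (AT4G03060), the dioxygenase that turns methylsulfinyl into alkenyl side chains, was at 2.58, 4.13, 3.49 and 4.71 FPKM in Col-0 and 32.6 and 25.3 in Per-1 (log2 difference 2.67 ± 0.21, adjusted p = 1.6e-05), 7.76-fold higher by the means. Its neighbour AOP3, which makes hydroxyalkyl chains, was under the filter on low values, at 0 to 0.03 FPKM in Col-0 and listed at 0 in Per-1. AOP1 (AT4G03070), the third member of that tandem, was at 2.69, 2.68, 2.77 and 2.78 FPKM in Col-0 and 1.11 and 1.35 in Per-1 (log2 difference -0.74 ± 0.11, adjusted p = 0.0013, overlapping). FMO GS-OX4 (AT1G62570), which oxidises the side-chain sulfur, was at 14.2, 10.6, 19.5 and 11.5 FPKM in Col-0 and 2.27 and 2.35 in Per-1 (log2 difference -2.14 ± 0.21, adjusted p = 6.5e-05). The transcription factor MYB29 (AT5G07690), an activator of aliphatic synthesis, was at 7.51, 10.51, 7.13 and 9.9 FPKM in Col-0 and 2.53 and 3.29 in Per-1 (log2 difference -1.31 ± 0.27, adjusted p = 0.0071, up to 0.076 without Per-1 replicate 1). The enzymes MAM3, AOP2, IPMI1 and IPMI2 were higher in Per-1, this regulator was lower, and in each case both Per-1 values lay outside the Col-0 range. AT2G25450, annotated as a dioxygenase dependent on 2-oxoglutarate and iron, was among the 15 largest falls, at 380.0, 339, 581 and 396 FPKM in Col-0 and 21.3 and 12.7 in Per-1 (log2 difference -4.57 ± 0.32, adjusted p = 6.2e-06).

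The indole branch, which starts from tryptophan, had 16 tested genes. In the strict set 2 of them were higher and 1 lower, against 4.90% and 9.43% of all tested genes. IGMT2 (AT1G21120), which methylates hydroxylated indole glucosinolates, was at 1.92, 1.42, 1.58 and 0.61 FPKM in Col-0 and 41.3 and 33.2 in Per-1 (log2 difference 4.03 ± 0.26, adjusted p = 3.5e-06). CYP81F1 (AT4G37430), which hydroxylates indole glucosinolates, was at 2.71, 3.38, 1.91 and 1.43 FPKM in Col-0 and 0.20 and 0.25 in Per-1 (log2 difference -1.42 ± 0.20, adjusted p = 9.1e-04, overlapping). CYP79B3 (AT2G22330), which converts tryptophan to its oxime, was at 34.1, 27.3, 17.2 and 15.5 FPKM in Col-0 and 61.3 and 39.9 in Per-1 (log2 difference 1.11 ± 0.30, adjusted p = 0.025, up to 0.22 without Per-1 replicate 1, 0.070 with the 6 libraries alone, 0.055 with Col-0 replicates 3 and 4 left out). Of the 16 genes, 7 were also called between the Col-0 pairs, against 15.1% of all tested genes.

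Genes of glucosinolate breakdown were lower for the myrosinases TGG1 and TGG2 and split for the proteins that steer the products. The myrosinase TGG2 (AT5G25980) was at 244, 267, 226 and 251 FPKM in Col-0 and 0.33 and 0.38 in Per-1 (log2 difference -7.51 ± 0.13, adjusted p = 4.5e-10). TGG1 (AT5G26000), the other leaf myrosinase, was far more abundant, at 1722, 1779, 1787 and 1937 FPKM in Col-0 and 1108 and 1218 in Per-1 (log2 difference -0.63 ± 0.13, adjusted p = 0.0067, up to 0.079 without Per-1 replicate 1, outside the strict set). The Per-1 libraries were below every Col-0 library in both genes. ESM1 (AT3G14210), which favours isothiocyanates over nitriles, was at 450.3, 492, 564 and 661 FPKM in Col-0 and 43.2 and 46.8 in Per-1 (log2 difference -3.55 ± 0.15, adjusted p = 1.2e-07), 12-fold lower by the means. Of the specifier proteins, which favour nitriles and related products, ESP (AT1G54040) was higher, at 19.2, 21.7, 19.6 and 20.9 FPKM in Col-0 and 47 and 36.4 in Per-1 (log2 difference 0.99 ± 0.11, adjusted p = 2.3e-04). NSP4 (AT3G16410) was also higher, at 0.18, 0.37, 0.21 and 0.22 FPKM in Col-0 and 2.62 and 1.86 in Per-1 (log2 difference 1.37 ± 0.12, adjusted p = 3.8e-05). No Per-1 value of ESM1, ESP or NSP4 fell within the Col-0 range. The others of the list that were tested did not pass: NSP1 (AT3G16400) was at 14.7, 19.9, 14.2 and 13 FPKM in Col-0 and 14.6 and 11.2 in Per-1 (log2 difference -0.24 ± 0.18, adjusted p = 0.35), and NSP5 (AT5G48180) at 127, 135, 205 and 139.6 FPKM in Col-0 and 128 and 107 in Per-1 (log2 difference -0.35 ± 0.35, adjusted p = 0.49). The glucosinolate transporter GTR1 (AT3G47960) was at 42.3, 40.6, 49.6 and 32.2 FPKM in Col-0 and 21.2 and 20.4 in Per-1 (log2 difference -0.93 ± 0.17, adjusted p = 0.0032, overlapping). Of 15 breakdown and transport genes tested, 2 were higher and 3 lower in the strict set, against 4.90% and 9.43% of all tested genes.

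**Figure D2:**
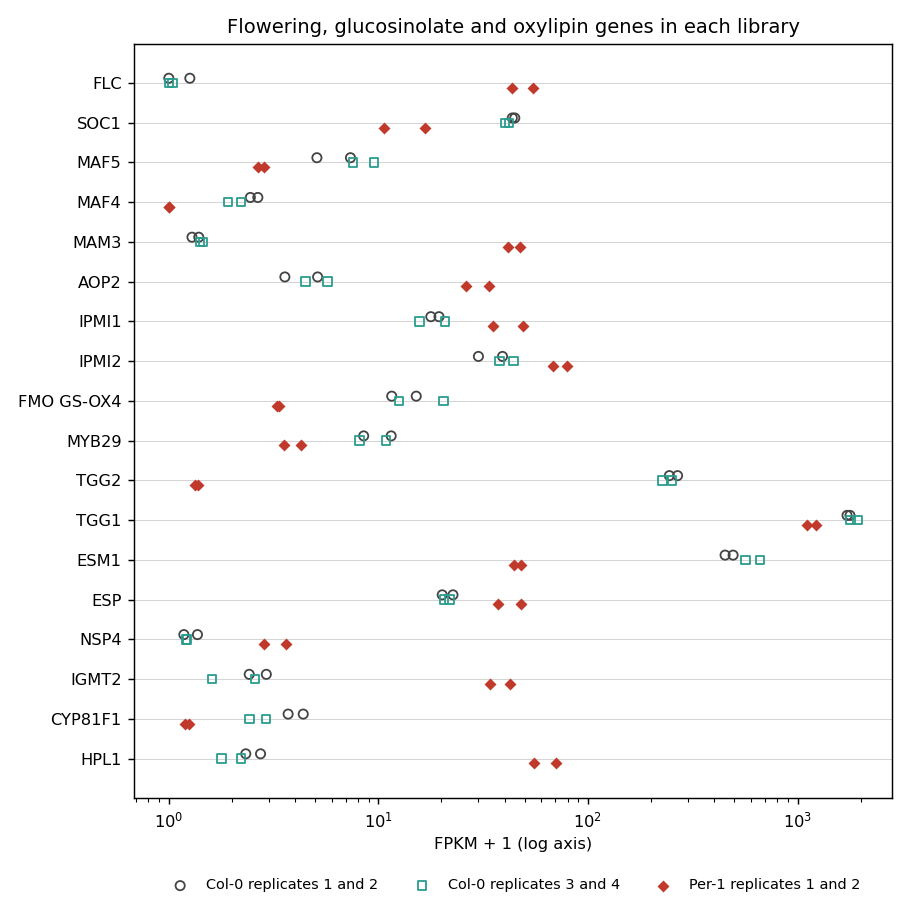
FPKM + 1 on a log axis of 18 genes of flowering, glucosinolates and oxylipins, with 1 symbol per library for Col-0 replicates 1 and 2 (circles), Col-0 replicates 3 and 4 (squares) and Per-1 (diamonds). The diamonds lie outside the range of the Col-0 symbols in every row, to the right for FLC, MAM3, AOP2, IPMI1, IPMI2, ESP, NSP4, IGMT2 and HPL1 and to the left for the others.

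Salicylic acid and immune signalling genes were higher in Per-1 wherever they were called. Of 28 genes tested, 15 were higher and 0 lower in the full comparison, against 6.07% and 19.8% of all tested genes. In the strict set 13 were higher and 0 lower, against 4.90% and 9.43%. The median of the 28 was 0.97. Among the regulators, PAD4 (AT3G52430), the partner of EDS1, was at 5.42, 4.55, 7.47 and 5.56 FPKM in Col-0 and 10.8 and 14.1 in Per-1 (log2 difference 1.0 ± 0.20, adjusted p = 0.0060, up to 0.078 without Per-1 replicate 2). SARD1 (AT1G73805), a transcription factor that activates salicylic acid synthesis, was at 0.56, 0.56, 1.73 and 0.98 FPKM in Col-0 and 3.24 and 3.58 in Per-1 (log2 difference 1.21 ± 0.25, adjusted p = 0.0067, up to 0.062 without Per-1 replicate 2, overlapping). PBS3 (AT5G13320), which conjugates isochorismate with glutamate on the way to salicylic acid, was at 1.25, 1.21, 1.08 and 0.99 FPKM in Col-0 and 2.74 and 3.54 in Per-1 (log2 difference 0.95 ± 0.17, adjusted p = 0.0030). The first enzyme of that route, ICS1 (AT1G74710), was at 7.74, 8.32, 5.74 and 5.04 FPKM in Col-0 and 9.4 and 10.7 in Per-1 (log2 difference 0.54 ± 0.20, adjusted p = 0.078), which did not pass the test. The receptor gene NPR1 (AT1G64280) was at 11.9, 12.5, 16.7 and 13.5 FPKM in Col-0 and 16.4 and 17.2 in Per-1 (log2 difference 0.29 ± 0.14, adjusted p = 0.15, overlapping) and did not pass either, with Per-1 replicate 1 below Col-0 replicate 3.

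Response genes of the pathway were higher too. WRKY70 (AT3G56400), a transcription factor between the salicylic acid and jasmonate pathways, was at 31.3, 26.5, 86 and 27.3 FPKM in Col-0 and 183 and 199.7 in Per-1 (log2 difference 2.32 ± 0.52, adjusted p = 0.010, up to 0.078 without Per-1 replicate 1 or 2). PR5 (AT1G75040), a thaumatin-like pathogenesis-related protein, was at 1.16, 0.87, 2.14 and 1.14 FPKM in Col-0 and 8.09 and 9.31 in Per-1 (log2 difference 2.08 ± 0.39, adjusted p = 0.0046). LURP1 (AT2G14560), needed for defence against downy mildew, was at 0.25, 1.29, 10.7 and 4.14 FPKM in Col-0 and 18.8 and 24.8 in Per-1 (log2 difference 2.64 ± 0.69, adjusted p = 0.021, up to 0.13 without Per-1 replicate 1 or 2, 0.072 with the 6 libraries alone). Col-0 values of these genes varied among themselves, and replicate 3 was the highest Col-0 library for all 3, below both Per-1 libraries. GRX480 (AT1G28480), a glutaredoxin that binds TGA factors, was at 0.71, 0.57, 1.68 and 2.76 FPKM in Col-0 and 8.52 and 3.93 in Per-1 (log2 difference 1.59 ± 0.35, adjusted p = 0.0099, up to 0.12 without Per-1 replicate 1), with Per-1 replicate 1 above replicate 2. NIMIN2 (AT3G25882), which binds NPR1, was at 0.18, 0.08, 0.57 and 0.54 FPKM in Col-0 and 1.24 and 1.67 in Per-1 (log2 difference 0.88 ± 0.19, adjusted p = 0.0088, up to 0.091 without Per-1 replicate 2). AIG1 (AT1G33960), induced by an avirulent pathogen, was at 2.35, 3.22, 4.82 and 2.62 FPKM in Col-0 and 16.6 and 14.5 in Per-1 (log2 difference 1.99 ± 0.32, adjusted p = 0.0019).

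At the cell surface the wall-associated kinases, which bind pectin, were higher in Per-1. WAK1 (AT1G21250) was at 6.3, 7.66, 24.6 and 21 FPKM in Col-0 and 54.5 and 62.9 in Per-1 (log2 difference 2.12 ± 0.46, adjusted p = 0.0089, up to 0.075 without Per-1 replicate 1 or 2). WAK2 (AT1G21270) was at 6.71, 7.03, 19.6 and 19.4 FPKM in Col-0 and 33.9 and 40.7 in Per-1 (log2 difference 1.59 ± 0.41, adjusted p = 0.019, up to 0.13 without Per-1 replicate 1 or 2, overlapping, 0.065 with the 6 libraries alone). WAK3 (AT1G21240) was at 0.06, 0.07, 0.39 and 0.60 FPKM in Col-0 and 1.85 and 1.7 in Per-1 (log2 difference 1.14 ± 0.23, adjusted p = 0.0058, up to 0.054 without Per-1 replicate 1). For each of them the Col-0 pairs differed, with replicates 3 and 4 between replicates 1 and 2 and Per-1. WAK3, WAK1 and WAK2 are neighbours in the genome. RLP23 (AT2G32680), the receptor of nlp20 peptides, was at 0.47, 0.75, 1.15 and 0.63 FPKM in Col-0 and 2.8 and 3.3 in Per-1 (log2 difference 1.22 ± 0.20, adjusted p = 0.0023, overlapping). RBOHF (AT1G64060), an oxidase of the oxidative burst, was at 5.19, 5.97, 4.05 and 3.58 FPKM in Col-0 and 1.53 and 1.91 in Per-1 (log2 difference -1.05 ± 0.17, adjusted p = 0.0017). The co-receptor BKK1 (AT2G13790) was at 11.9, 7.56, 8.83 and 6.14 FPKM in Col-0 and 3.32 and 3.61 in Per-1 (log2 difference -1.07 ± 0.20, adjusted p = 0.0037). SD1-29 (AT1G61380), a lectin receptor kinase known as LORE, was at 9.64, 7.8, 12.6 and 12.6 FPKM in Col-0 and 5.01 and 4.38 in Per-1 (log2 difference -1.01 ± 0.21, adjusted p = 0.0067, up to 0.069 without Per-1 replicate 2). Of 28 genes of pattern recognition tested, 4 were higher and 3 lower in the strict set, against 4.90% and 9.43% of all tested genes.

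Intracellular immune receptors were more often lower than higher in Per-1, and some were listed at 0. Of 35 named NLR genes tested, 16 were lower and 4 higher in the strict set, against 9.43% and 4.90% of all tested genes. Over all genes annotated as TIR-NBS-LRR or CC-NBS-LRR proteins it was 43 lower and 17 higher of 91, with a median of -0.53. These counts share genes. RLM1B (AT1G63880) was at 22.2, 21.1, 24.6 and 21.4 FPKM in Col-0 and listed at 0 in both Per-1 libraries (adjusted p = 2.5e-09). CSA1 (AT5G17880) and its neighbour CHS3 (AT5G17890), a pair of receptors that work together, were both listed at 0 in Per-1: CSA1 was at 4.66, 4.12, 6.3 and 5.09 FPKM in Col-0 (adjusted p = 1.4e-06) and CHS3 at 6.66, 7.78, 8.3 and 8.4 FPKM (adjusted p = 1.0e-07). RPS2 (AT4G26090), which guards RIN4, was at 1.1, 1.26, 1.78 and 1.06 FPKM in Col-0 and 0.29 and 0.42 in Per-1 (log2 difference -0.75 ± 0.14, adjusted p = 0.0045, up to 0.053 without Per-1 replicate 1, overlapping). The submitters' processing notes name TAIR10, the genome of Col-0, as the build. Low or zero values in Per-1 may also come from genes that are absent from Per-1 or differ in sequence from that genome, which was not tested.

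Among the receptors against downy mildew named RPP, RPP1, RPP2A, RPP4, RPP5, RPP7 and RPP8 were lower and RPP2B was higher. RPP1 (AT3G44480) was at 34.1, 33.9, 24.7 and 27.1 FPKM in Col-0 and 7.72 and 9.48 in Per-1 (log2 difference -1.68 ± 0.15, adjusted p = 3.2e-05, overlapping). RPP7 (AT1G58602) was at 21.9, 24.8, 40.7 and 36.8 FPKM in Col-0 and 4.7 and 5.53 in Per-1 (log2 difference -2.35 ± 0.24, adjusted p = 9.8e-05, overlapping). At RPP2, where both neighbouring genes RPP2A and RPP2B are needed for resistance, RPP2A (AT4G19500) was at 15.1, 14.8, 12.3 and 13.1 FPKM in Col-0 and 0.02 and 0 in Per-1 while RPP2B (AT4G19510) was at 14.1, 14.4, 11.2 and 10.48 FPKM in Col-0 and 26.8 and 30.6 in Per-1 (log2 difference 1.14 ± 0.14, adjusted p = 2.7e-04). The helper receptor NRG1.2 (AT5G66910) was at 1.17, 1.28, 2.11 and 2.06 FPKM in Col-0 and 4.79 and 4.09 in Per-1 (log2 difference 1.05 ± 0.18, adjusted p = 0.0026). The RPW8 homologs HR3 (AT3G50470) and HR4 (AT3G50480), next to each other, went in opposite directions, HR3 at 0.17, 0.10, 0.26 and 0.20 FPKM in Col-0 and 1.82 and 2.7 in Per-1 (log2 difference 1.45 ± 0.25, adjusted p = 0.0026). HR4 was at 15.3, 16.7, 19.8 and 9.86 FPKM in Col-0 and 0.25 and 0.69 in Per-1 (log2 difference -3.46 ± 0.39, adjusted p = 1.9e-04). In all 21 called genes of the list both Per-1 values lay outside the Col-0 range, as in 4366 of all 4368 called genes.

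**Figure D3:**
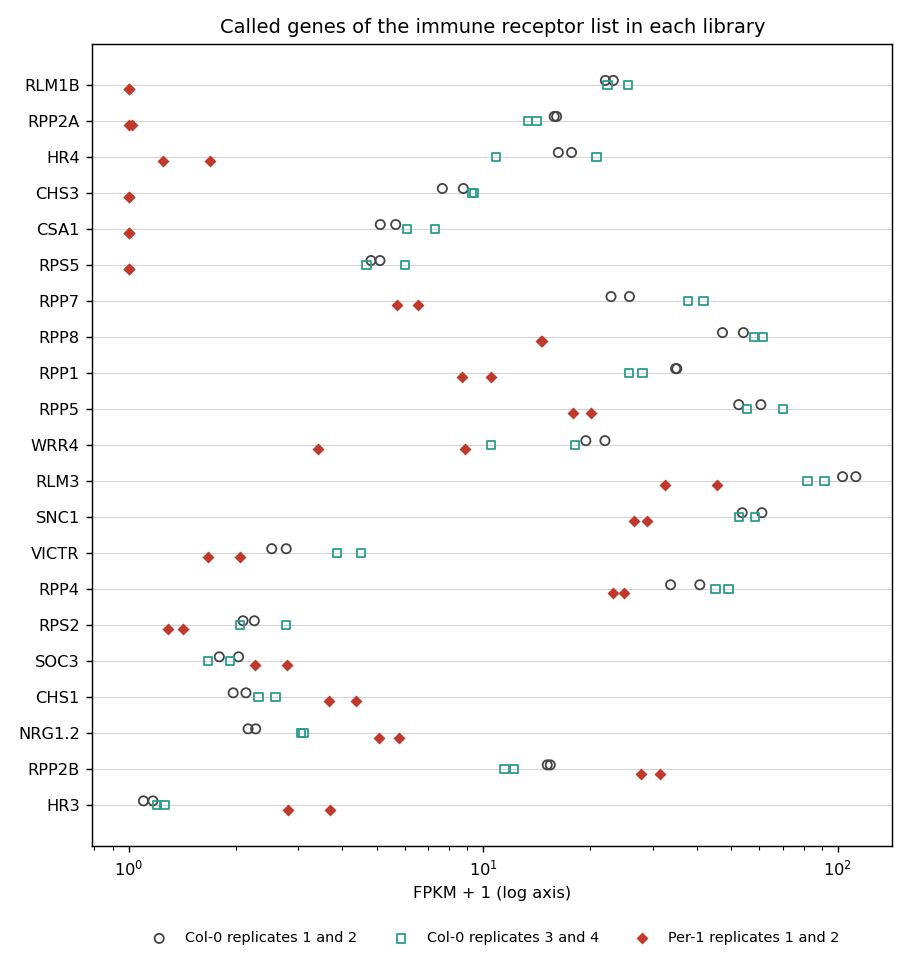
FPKM + 1 on a log axis of the 21 called genes of the list of named NLR and RPW8-like genes, with symbols as in the plot of flowering and glucosinolate genes. Per-1 (diamonds) lies to the left of Col-0 in 16 rows and to the right in SOC3, CHS1, NRG1.2, RPP2B and HR3.

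Differences sat side by side in several clusters of near copies. Runs were counted of at least 3 tested neighbours that all belong to the strict set with an absolute log2 difference of at least 1. There were 30 runs with 118 genes, out of 1070 such genes among 16732 nuclear genes. Overlapping genes were kept in the runs, so the same reads can count for more than 1 neighbour. In 16 runs the neighbours went in both directions, in 12 all were lower in Per-1 and in 2 all were higher. The longest run, of 12 genes, lies in a cluster of F-box genes, LpxC genes for a deacetylase of lipid A precursors, and glutamine amidotransferase genes. The borders of this cluster lie at the outer genes of runs, so its counts come with that choice. Of 18 tested genes there, 15 were lower and 3 higher, against 9.43% and 4.90% of all tested genes. Of the 18, 10 overlap another annotated gene. LpxC2 (AT1G24880) was at 24.2, 28.9, 21.5 and 24.9 FPKM in Col-0 and listed at 0 in both Per-1 libraries (adjusted p = 1.5e-08, overlapping), and LpxC1, LpxC3, LpxC4 and LpxC5 were lower as well. The higher genes were the amidotransferases AT1G24909, AT1G25083 and AT1G25155, the last at 0, 0, 0 and 0.04 FPKM in Col-0 and 1.94 and 2.08 in Per-1 (log2 difference 1.58 ± 0.12, adjusted p = 1.0e-05, overlapping).

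The borders of the RPP7 cluster likewise lie at the outer genes of runs, so its counts come with that choice. In this cluster 9 of 11 tested genes were lower and 0 higher, against 9.43% and 4.90% of all tested genes. Besides the CC-NBS-LRR genes AT1G58807, AT1G58848, AT1G59124 and AT1G59218 it holds copies of a ribosomal protein S5 gene, of which AT1G58684 was at 48.2, 36.3, 42.1 and 49.1 FPKM in Col-0 and 1.45 and 1.03 in Per-1 (log2 difference -4.32 ± 0.19, adjusted p = 2.2e-07). In the cluster that holds RPP4 and RPP5, 6 of 12 tested genes were lower and 3 higher. RPP5 (AT4G16950) was at 59.6, 51.5, 69 and 54.4 FPKM in Col-0 and 16.9 and 19.2 in Per-1 (log2 difference -1.64 ± 0.16, adjusted p = 6.3e-05, overlapping). Its neighbour AT4G16940, of the same receptor class, was at 0.36, 0.51, 0.45 and 0.64 FPKM in Col-0 and 7.34 and 7.42 in Per-1 (log2 difference 2.49 ± 0.12, adjusted p = 4.0e-07). SNC1 (AT4G16890), the receptor whose gain of function stunts the plant, was at 60, 52.7, 57.3 and 51.6 FPKM in Col-0 and 25.7 and 27.9 in Per-1 (log2 difference -1.02 ± 0.11, adjusted p = 1.2e-04). Copies in these clusters are near-identical in parts, and how the authors' counting divided reads among them is not given in the sources used here. Values of single copies are uncertain for that reason.

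**Figure D4:**
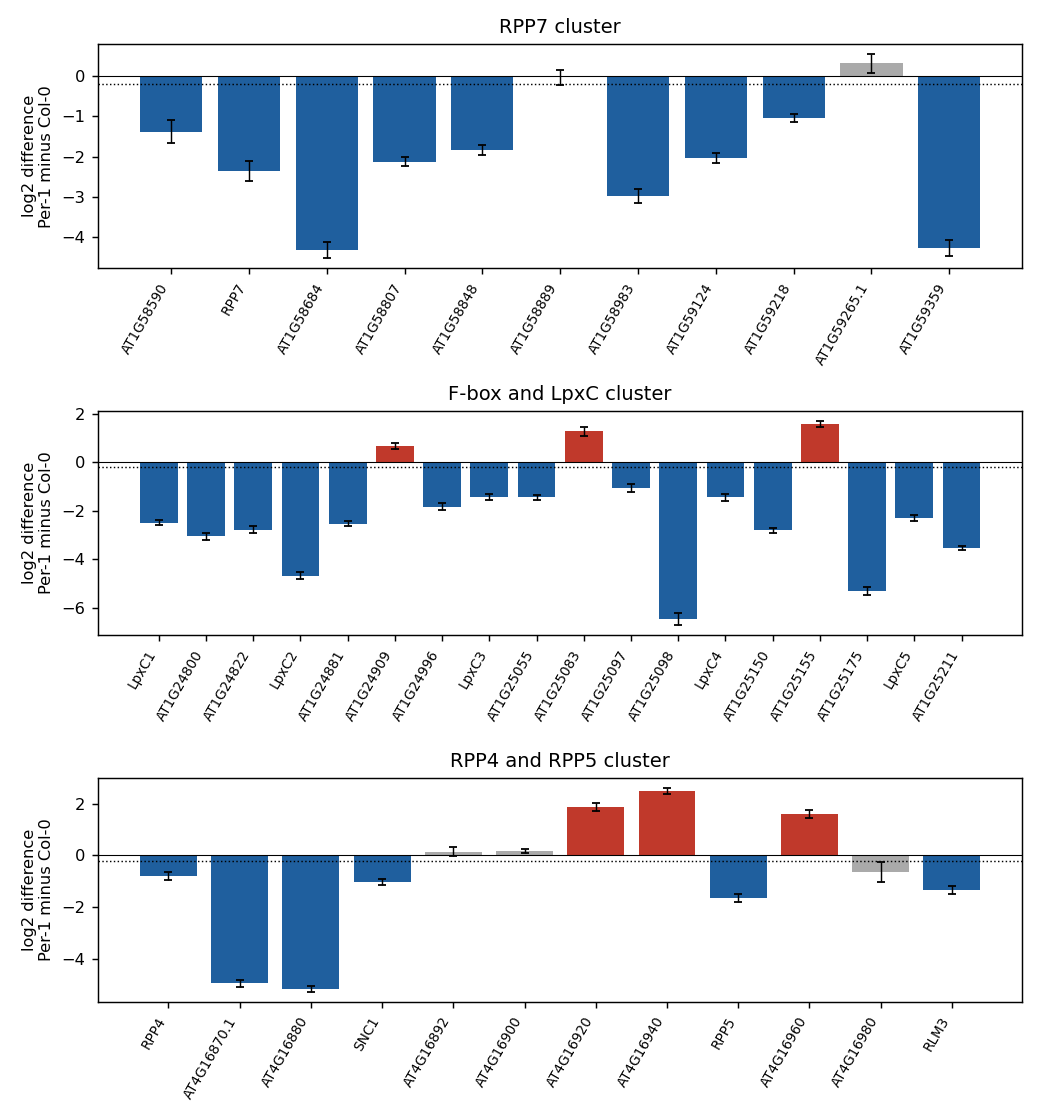
Log2 difference between Per-1 and Col-0, on the log2(FPKM + 1) scale, of each tested gene in 3 clusters in the order of their identifiers. Bars are coloured where the gene belongs to the strict set (red higher, blue lower, grey not in the set), whiskers are standard errors and the dotted line is the median of all tested genes, -0.19. Bars of genes listed at 0 in Per-1 depend on the added 1 FPKM.

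A cluster of CYP71B genes, cytochrome P450 enzymes with many unknown substrates, was mixed: 4 of 13 tested genes were lower and 2 higher. CYP71B26 (AT3G26290) was at 40.7, 44, 55.5 and 63.4 FPKM in Col-0 and 5.64 and 6.04 in Per-1 (log2 difference -2.9 ± 0.29, adjusted p = 7.6e-05). CYP71B23 (AT3G26210) was at 0.92, 0.86, 2.13 and 1.38 FPKM in Col-0 and 8.21 and 6.97 in Per-1 (log2 difference 1.92 ± 0.26, adjusted p = 6.2e-04). The 4 neighbours from AT1G27540 to AT1G27580 are 1 of the runs, so it comes with the choice that all 4 are called. Of these, 3 were higher in Per-1 and 1 was lower. The F-box gene AT1G27540 was at 14.7, 14.7, 13.8 and 12.9 FPKM in Col-0 and 144 and 149.8 in Per-1 (log2 difference 3.3 ± 0.11, adjusted p = 2.5e-08). The F-box gene AT1G27580 was at 1.12, 1.06, 1.48 and 1.17 FPKM in Col-0 and 37.8 and 39.5 in Per-1 (log2 difference 4.17 ± 0.11, adjusted p = 4.7e-09, overlapping). The lower gene was AT1G27565, at 2.48, 1.75, 1.7 and 2.09 FPKM in Col-0 and 0.60 and 0.17 in Per-1 (log2 difference -1.13 ± 0.17, adjusted p = 0.0010). In the same run AT1G27570, annotated as a phosphatidylinositol kinase family protein, was listed at 0 in Col-0 and at 4.46 and 4.68 FPKM in Per-1. The 3 MATE efflux transporter genes of another run were all higher, among them AT2G04066 at 0.18, 0.25, 0.34 and 0.72 FPKM in Col-0 and 6.54 and 5.61 in Per-1 (log2 difference 2.38 ± 0.16, adjusted p = 3.9e-06).

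Some genes had signal in 1 accession and none listed in the other. Of the tested genes 107 were listed at 0 in both Per-1 libraries and 24 in all 4 Col-0 libraries. With at least 5 FPKM in each Col-0 library, 19 genes were at 0 in Per-1. The thionin gene AT1G66100, for a small antimicrobial peptide, was at 188, 297, 79.6 and 127 FPKM in Col-0 (adjusted p = 1.3e-06, overlapping), and AT2G43550, of the knottin-like toxin family, at 32.7, 31.3, 94.3 and 102 FPKM (adjusted p = 1.1e-05). Conversely, 14 genes were at 0 in Col-0 and at least 3 FPKM in each Per-1 library. The cullin family gene AT4G12100 was at 20.7 and 21.3 FPKM in Per-1 (adjusted p = 1.1e-09), AT3G61030, with a calcium-dependent lipid-binding domain, at 10.6 and 12.6 FPKM (adjusted p = 1.6e-08), and the subtilase gene AT4G21640 at 4.88 and 8.53 FPKM (adjusted p = 6.1e-06). A value of 0 can also be a failed estimate, and RBCS1A, abundant in the other libraries, is listed at 0 in Col-0 replicates 1 and 2, so no fold is given.

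The largest rise with a minimum mean of 5 FPKM and no overlapping gene was in PCR1 (AT1G14880), a membrane protein named for cadmium resistance, at 0.06, 0.17, 0.74 and 0.49 FPKM in Col-0 and 66.3 and 87 in Per-1 (log2 difference 5.84 ± 0.22, adjusted p = 7.2e-08). The noncoding RNA gene AT2G15555 was at 0.09, 0.04, 0.08 and 0.04 FPKM in Col-0 and 38.6 and 41.8 in Per-1 (log2 difference 5.28 ± 0.09, adjusted p = 4.5e-10). The methyltransferase gene AT5G04380 was at 0.04, 0, 0.04 and 0 FPKM in Col-0 and 22 and 30.2 in Per-1 (log2 difference 4.72 ± 0.13, adjusted p = 9.3e-09). The groups were separated by more than an order of magnitude in each of these. The largest fall under the same conditions was in AT2G25510, at 471, 730.4, 907 and 730.1 FPKM in Col-0 and 0.18 and 0 in Per-1 (log2 difference -9.32 ± 0.27, adjusted p = 1.3e-08). Other large falls included AT1G23130, of the Bet v 1-like lipid transport family, at 402, 428, 462 and 458 FPKM in Col-0 and 6.49 and 8.48 in Per-1 (log2 difference -5.7 ± 0.15, adjusted p = 6.1e-09). AT3G47250, of the DUF247 family, was at 82.8, 89.4, 85.3 and 76.8 FPKM in Col-0 and 0.03 and 0.02 in Per-1 (log2 difference -6.37 ± 0.11, adjusted p = 4.5e-10). SQP1 (AT5G24150), a squalene epoxidase-like protein, was at 104, 119.7, 38.9 and 41.2 FPKM in Col-0 and 0.55 and 0.60 in Per-1 (log2 difference -5.43 ± 0.42, adjusted p = 1.2e-05). The MADS-box gene AGL87 (AT1G22590) was at 18, 25.6, 25.6 and 23.4 FPKM in Col-0 and 0.25 and 0.05 in Per-1 (log2 difference -4.39 ± 0.16, adjusted p = 4.7e-08).

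Jasmonate and oxylipin genes were more often higher than lower in Per-1. Of 37 jasmonate and oxylipin genes tested, 5 were higher and 1 lower in the strict set, against 4.90% and 9.43% of all tested genes. HPL1 (AT4G15440), the hydroperoxide lyase that makes green leaf volatiles from the same precursor as jasmonate, was at 1.74, 1.33, 0.78 and 1.21 FPKM in Col-0 and 54.1 and 69.8 in Per-1 (log2 difference 4.8 ± 0.19, adjusted p = 1.0e-07), 49-fold higher by the means. Genes that inactivate jasmonates were among the rises: CYP94C1 (AT2G27690), which oxidises jasmonoyl-isoleucine, was at 2.7, 2.89, 1.42 and 0.80 FPKM in Col-0 and 12 and 5.1 in Per-1 (log2 difference 1.66 ± 0.37, adjusted p = 0.010, up to 0.12 without Per-1 replicate 1). ST2A (AT5G07010), which sulfates hydroxyjasmonate, was at 0.36, 0.42, 1.22 and 1.51 FPKM in Col-0 and 3.15 and 3.46 in Per-1 (log2 difference 1.25 ± 0.26, adjusted p = 0.0078, up to 0.067 without Per-1 replicate 1 or 2). ACX1 (AT4G16760), which shortens jasmonate precursors in the peroxisome, was lower, at 57.7, 50.4, 57.8 and 50 FPKM in Col-0 and 33.3 and 27.7 in Per-1 (log2 difference -0.81 ± 0.16, adjusted p = 0.0066, up to 0.080 without Per-1 replicate 2). For CYP94C1, as for ORA59 and JAZ10, Per-1 replicate 1 was above replicate 2.

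The 6 ethylene genes called among 22 tested were all higher in Per-1, where 6.07% of all tested genes were higher. In the strict set 5 were higher and 0 lower, against 4.90% and 9.43% of all tested genes. The median of the 22 was 0.58. CTR1 (AT5G03730), the kinase that represses the response, was at 20.8, 22.6, 21.2 and 23.9 FPKM in Col-0 and 37.9 and 36.4 in Per-1 (log2 difference 0.72 ± 0.11, adjusted p = 0.0010). EBF2 (AT5G25350), an F-box protein that removes the transcription factor EIN3, was at 68.9, 54.7, 45.8 and 33.5 FPKM in Col-0 and 141 and 143 in Per-1 (log2 difference 1.51 ± 0.27, adjusted p = 0.0032, overlapping). Its relative EBF1 (AT2G25490) was at 40.2, 30.2, 31.4 and 25.4 FPKM in Col-0 and 60.6 and 59.1 in Per-1 (log2 difference 0.91 ± 0.22, adjusted p = 0.014, up to 0.092 without Per-1 replicate 1 or 2). The receptor ETR2 (AT3G23150) was at 3.93, 4.56, 3.6 and 3.62 FPKM in Col-0 and 6.38 and 6.23 in Per-1 (log2 difference 0.57 ± 0.12, adjusted p = 0.0081, up to 0.069 without Per-1 replicate 1 or 2). As background, all of these act against the ethylene response, and ethylene itself induces EBF2 and ETR2. The response factor ERF2 (AT5G47220) was at 52.8, 44.9, 65.3 and 22.2 FPKM in Col-0 and 263 and 205 in Per-1 (log2 difference 2.4 ± 0.48, adjusted p = 0.0061, up to 0.064 without Per-1 replicate 1), above all Col-0 libraries, of which replicate 4 was the lowest.

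Of 15 cytokinin genes tested, 5 were lower in Per-1 and 0 higher, against 19.8% and 6.07% of all tested genes, and 3 were lower in the strict set, against 9.43%. The receptor AHK4 (AT2G01830) was at 2.94, 3.79, 4 and 3.78 FPKM in Col-0 and 0.79 and 0.93 in Per-1 (log2 difference -1.31 ± 0.12, adjusted p = 3.2e-05). Among the type-A response regulators, which cytokinin induces and which dampen its signal, ARR6 (AT5G62920) was at 12.7, 9.9, 7.19 and 9.62 FPKM in Col-0 and 1 and 0.78 in Per-1 (log2 difference -2.5 ± 0.26, adjusted p = 9.3e-05, overlapping). ARR7 (AT1G19050) was at 33.4, 29.9, 32 and 22.2 FPKM in Col-0 and 14.1 and 10.8 in Per-1 (log2 difference -1.17 ± 0.24, adjusted p = 0.0066, up to 0.078 without Per-1 replicate 2). The Per-1 values lay under all Col-0 values in these 3 genes. In the gibberellin branch GA20OX1 (AT4G25420), a synthesis enzyme, was at 1.11, 2.24, 0.85 and 1.26 FPKM in Col-0 and 0.32 and 0.45 in Per-1 (log2 difference -0.74 ± 0.19, adjusted p = 0.020, up to 0.14 without Per-1 replicate 1 or 2, 0.13 with quantile normalization, 0.066 with the 6 libraries alone). The DELLA repressor GAI (AT1G14920) was at 18.8, 18.3, 17.63 and 26.3 FPKM in Col-0 and 30.6 and 33.9 in Per-1 (log2 difference 0.66 ± 0.17, adjusted p = 0.018, up to 0.14 without Per-1 replicate 1 or 2, 0.059 with Col-0 replicates 1 and 2 left out). The cytokinin genes were taken by symbol from a list of gibberellin, brassinosteroid and cytokinin genes. Of the 36 tested genes of that whole list 1 was higher and 4 lower in the strict set, against 4.90% and 9.43% of all tested genes. Auxin genes gave 0 higher and 1 lower of 41, the lower being IAA6 (AT1G52830) (log2 difference -1.04 ± 0.20, adjusted p = 0.0049).

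Genes of nitrogen assimilation were among the higher ones. Of 52 genes of nitrogen, sulfur, phosphate and iron nutrition, 5 were higher and 0 lower in the strict set, against 4.90% and 9.43% of all tested genes. The median of the 52 was 0.20. NIR1 (AT2G15620), the nitrite reductase, was at 114, 109.8, 139.6 and 121 FPKM in Col-0 and 212 and 210.1 in Per-1 (log2 difference 0.8 ± 0.16, adjusted p = 0.0060, up to 0.053 without Per-1 replicate 1). ASN2 (AT5G65010), an asparagine synthetase, was at 105, 107, 109 and 101 FPKM in Col-0 and 208 and 188 in Per-1 (log2 difference 0.9 ± 0.10, adjusted p = 1.5e-04). GLN1;1 (AT5G37600), a cytosolic glutamine synthetase, was at 27.1, 24.3, 55.7 and 49.1 FPKM in Col-0 and 93.3 and 94.3 in Per-1 (log2 difference 1.33 ± 0.31, adjusted p = 0.012, up to 0.080 without Per-1 replicate 1 or 2), with the Col-0 pairs apart from each other. The glutamate dehydrogenase GDH1 (AT5G18170) (log2 difference 0.71 ± 0.17, adjusted p = 0.016, up to 0.17 without Per-1 replicate 1, overlapping) and the ferric reductase FRO2 (AT1G01580) (log2 difference 1.04 ± 0.19, adjusted p = 0.0038, up to 0.056 without Per-1 replicate 2) were higher too.

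Genes of DNA replication, histones and ribosomes were more often lower than higher in Per-1, where 9.43% of all tested genes were lower in the strict set. Of 40 cell cycle genes 11 were lower and 1 was higher in the strict set, with a median of -0.42. Of the helicase that opens replication origins, MCM7 (AT4G02060) was at 3.21, 3, 3.72 and 4.05 FPKM in Col-0 and 1.57 and 1.26 in Per-1 (log2 difference -0.89 ± 0.14, adjusted p = 0.0015, overlapping), and MCM2, MCM3 and MCM6 were lower as well. RNR1 (AT2G21790), the large subunit of ribonucleotide reductase, was at 8.11, 9.14, 10.8 and 11.2 FPKM in Col-0 and 4.71 and 3.97 in Per-1 (log2 difference -1.01 ± 0.15, adjusted p = 9.2e-04). CYCB2;3 (AT1G20610), a mitotic cyclin, was the member that was higher, at 0.67, 0.82, 1.15 and 1.4 FPKM in Col-0 and 4.27 and 5.63 in Per-1 (log2 difference 1.57 ± 0.18, adjusted p = 1.8e-04). In bulk leaves, fewer dividing cells and less transcript per cell cannot be told apart, here and in the results on other cell types.

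Histone genes were lower in 13 of 44 cases in the strict set, against 9.43% of all tested genes. The histone gene AT5G59690 was at 99.5, 71.6, 60.8 and 63.9 FPKM in Col-0 and 12.9 and 13.9 in Per-1 (log2 difference -2.35 ± 0.19, adjusted p = 1.8e-05). HTB1 (AT1G07790), for a histone H2B, was at 22.9, 20.3, 13.6 and 15.5 FPKM in Col-0 and 7.58 and 7.08 in Per-1 (log2 difference -1.17 ± 0.22, adjusted p = 0.0040). The exception was HIS1-3 (AT2G18050), a linker histone induced by drought, at 5.52, 6.74, 4.93 and 4.13 FPKM in Col-0 and 22.2 and 25.6 in Per-1 (log2 difference 1.99 ± 0.20, adjusted p = 9.5e-05). Ribosomal protein genes, cytosolic and organellar, were lower in 54 and higher in 2 of 263 cases in the strict set, and their median of -0.47 became -0.26 with median-ratio scaling. Pentatricopeptide repeat genes, which edit and process organellar RNA, were lower in 21 and higher in 2 of 159.

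Among regulators of DNA methylation, small RNAs and chromatin 7 of 48 were lower and 2 higher in the strict set. Of all tested genes 9.43% were lower and 4.90% higher in that set. The median of the 48 was -0.15, against -0.19 over all tested genes. The maintenance factors were among the lower ones: MET1 (AT5G49160), the CG methyltransferase, was at 4.67, 4.68, 4.3 and 4.78 FPKM in Col-0 and 2.41 and 2.44 in Per-1 (log2 difference -0.71 ± 0.09, adjusted p = 4.0e-04). VIM1 (AT1G57820), which recruits it, was at 3.25, 2.77, 2.27 and 2.25 FPKM in Col-0 and 0.78 and 1.05 in Per-1 (log2 difference -0.92 ± 0.13, adjusted p = 0.0011). The remodeller DDM1 (AT5G66750) was at 1.46, 1.12, 1.41 and 1.47 FPKM in Col-0 and 0.28 and 0.33 in Per-1 (log2 difference -0.86 ± 0.13, adjusted p = 0.0012). SGS3 (AT5G23570), needed for double-stranded RNA in silencing, was the largest rise, at 7.84, 8.93, 11.5 and 11.4 FPKM in Col-0 and 30.1 and 29.7 in Per-1 (log2 difference 1.52 ± 0.15, adjusted p = 6.5e-05). The demethylase DML2 (AT3G10010) was the other higher gene (log2 difference 0.59 ± 0.15, adjusted p = 0.018, up to 0.11 without Per-1 replicate 1 or 2, 0.056 with the 6 libraries alone). CLF (AT2G23380), a Polycomb methyltransferase that acts on FLC among other genes, was at 2.78, 2.69, 2.95 and 2.78 FPKM in Col-0 and 1.52 and 1.43 in Per-1 (log2 difference -0.62 ± 0.09, adjusted p = 8.1e-04, overlapping), below every Col-0 library.

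Of 19 phenylpropanoid genes, which include those of lignin, 5 were lower and 2 higher in the strict set, against 9.43% and 4.90% of all tested genes. OMT1 (AT5G54160), a methyltransferase of lignin units, was at 240.5, 214, 204 and 184 FPKM in Col-0 and 107 and 93.8 in Per-1 (log2 difference -1.06 ± 0.14, adjusted p = 5.3e-04). HCT (AT5G48930), which directs carbon to lignin, was at 167, 159, 120.3 and 125 FPKM in Col-0 and 69.8 and 74.1 in Per-1 (log2 difference -0.96 ± 0.15, adjusted p = 0.0013). LAC17 (AT5G60020), a laccase that polymerises lignin, was at 9.02, 9.98, 6.04 and 7.44 FPKM in Col-0 and 2.47 and 2.87 in Per-1 (log2 difference -1.29 ± 0.16, adjusted p = 3.5e-04, overlapping). FAH1 (AT4G36220), a hydroxylase on the way to sinapate and syringyl lignin, was higher, at 48.6, 57, 47.6 and 49 FPKM in Col-0 and 79 and 74.5 in Per-1 (log2 difference 0.6 ± 0.13, adjusted p = 0.0077, up to 0.076 without Per-1 replicate 1). Phloem and xylem genes were lower in 4 of 17 cases and higher in 0. TED6 (AT1G43790), of secondary wall formation in vessels, was at 19.1, 21.3, 26.3 and 29 FPKM in Col-0 and 8.41 and 11.4 in Per-1 (log2 difference -1.19 ± 0.24, adjusted p = 0.0066, up to 0.081 without Per-1 replicate 1). The summed level of the 19 vascular genes was 581 to 732 FPKM in Col-0 and 474 to 517 FPKM in Per-1, and its part in the lignin result was not tested.

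In the cuticle list 4 of 33 were lower and 1 was higher in the strict set, against 9.43% and 4.90% of all tested genes. CER1 (AT1G02205), which makes the alkanes of leaf wax, was at 14.3, 14.2, 4.77 and 5.13 FPKM in Col-0 and 0.69 and 1.64 in Per-1 (log2 difference -2.17 ± 0.47, adjusted p = 0.0089, up to 0.093 without Per-1 replicate 1), with the Col-0 pairs apart. KCS20 (AT5G43760), an elongase of very long chains, was at 55.5, 53.8, 63.1 and 41.3 FPKM in Col-0 and 27.3 and 23.7 in Per-1 (log2 difference -1.03 ± 0.21, adjusted p = 0.0065, up to 0.070 without Per-1 replicate 2). Cell wall loosening genes were lower in 4 and higher in 1 of 34 cases, against the same shares. The expansin EXPA5 (AT3G29030) was at 8.24, 8.15, 8.8 and 13.8 FPKM in Col-0 and 3.57 and 4.53 in Per-1 (log2 difference -1.07 ± 0.21, adjusted p = 0.0054, up to 0.066 without Per-1 replicate 1). XTH33 (AT1G10550), a xyloglucan-modifying enzyme, was at 0.13, 0.24, 0.12 and 0.08 FPKM in Col-0 and 19.5 and 13.3 in Per-1 (log2 difference 3.91 ± 0.34, adjusted p = 2.7e-05). PGIP1 (AT5G06860), an inhibitor of fungal pectin-degrading enzymes, was at 14.1, 8.43, 15.2 and 5.42 FPKM in Col-0 and 0.92 and 0.61 in Per-1 (log2 difference -2.65 ± 0.43, adjusted p = 0.0020, overlapping). Its tandem neighbour PGIP2 (AT5G06870) was at 101, 98.4, 64.5 and 44.1 FPKM in Col-0 and 219 and 121 in Per-1 (log2 difference 1.14 ± 0.37, adjusted p = 0.047, up to 0.35 without Per-1 replicate 1 or 2 or Col-0 replicate 3 or 4, outside the strict set, 0.092 with the 6 libraries alone, 0.065 without the filter).

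In carbohydrate metabolism APL3 (AT4G39210), a subunit of the enzyme that supplies starch synthesis, was at 12.4, 10.9, 9.71 and 10.7 FPKM in Col-0 and 2.98 and 4.02 in Per-1 (log2 difference -1.41 ± 0.17, adjusted p = 2.8e-04). The chloroplast β-amylase BAM3 (AT4G17090), which breaks starch down, was at 84.3, 92.1, 144 and 110.2 FPKM in Col-0 and 47.3 and 43.7 in Per-1 (log2 difference -1.2 ± 0.24, adjusted p = 0.0064, up to 0.061 without Per-1 replicate 2, overlapping). SWEET11 (AT3G48740), a sucrose exporter of phloem parenchyma, was higher, at 99.2, 102, 85.5 and 96.8 FPKM in Col-0 and 139 and 165 in Per-1 (log2 difference 0.66 ± 0.15, adjusted p = 0.012, up to 0.13 without Per-1 replicate 2). Of the 45 genes of this list 4 were lower and 1 was higher in the strict set, against 9.43% and 4.90% of all tested genes. Between the Col-0 pairs 18 were called, against 15.1%. Of 17 antenna protein genes tested, 2 were higher and 0 lower in the strict set: LHCB2.2 (AT2G05070) was at 2703, 3003, 1529 and 2015 FPKM in Col-0 and 4140.2 and 4776 in Per-1 (log2 difference 0.99 ± 0.26, adjusted p = 0.020, up to 0.14 without Per-1 replicate 1 or 2, 0.069 with quantile normalization, 0.056 with the 6 libraries alone) and LHCB1.2 (AT1G29910) at 4061, 3840.0, 3696 and 4412 FPKM in Col-0 and 6161 and 6329 in Per-1 (log2 difference 0.64 ± 0.14, adjusted p = 0.0095, up to 0.081 without Per-1 replicate 1 or 2, 0.091 with quantile normalization, 0.098 without the filter). Both belong to families of near-identical copies, so reads may be divided among them. Of 46 nuclear photosynthesis genes 3 were higher and 0 lower in the strict set, against 4.90% and 9.43% of all tested genes.

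Large gene families contributed in both directions, and the counts given here are in the strict set, which held 4.90% of all tested genes as higher and 9.43% as lower. Among lectins 9 were higher and 4 lower of 60, with JAL33 (AT3G16450), a jacalin-related lectin, at 0, 0.17, 0.03 and 0.10 FPKM in Col-0 and 3.53 and 2.87 in Per-1 (log2 difference 1.96 ± 0.27, adjusted p = 8.0e-04). Of cysteine-rich receptor-like kinases 4 were higher and 1 lower of 19. CRK4 (AT3G45860) was at 0.49, 1.27, 0.90 and 0.49 FPKM in Col-0 and 4.31 and 6.4 in Per-1 (log2 difference 1.83 ± 0.23, adjusted p = 4.3e-04). CRK18 (AT4G23260) was at 24.1, 24.6, 26.7 and 23.9 FPKM in Col-0 and 8.85 and 7.93 in Per-1 (log2 difference -1.46 ± 0.13, adjusted p = 3.7e-05). Receptor-like proteins gave 8 lower and 3 higher of 28, among them RLP47 (AT4G13810) at 6.28, 8.51, 10.1 and 10.46 FPKM in Col-0 and 0.64 and 1.02 in Per-1 (log2 difference -2.41 ± 0.22, adjusted p = 3.7e-05, overlapping). F-box proteins, the substrate receptors of ubiquitin ligases, gave 11 higher and 17 lower of 132.

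Small defence peptides were lower in 4 of 12 tested cases and higher in 0 in the strict set, with a median of -1.05. Of all tested genes 9.43% were lower and 4.90% higher in that set. Besides AT1G66100, THI2.2 (AT5G36910), another thionin, was at 60.4, 64.2, 20.5 and 28.1 FPKM in Col-0 and 6.55 and 8.93 in Per-1 (log2 difference -2.2 ± 0.42, adjusted p = 0.0048, up to 0.056 without Per-1 replicate 1). The defensin-like gene AT3G05730 was at 106, 128, 135 and 131 FPKM in Col-0 and 46.1 and 39.8 in Per-1 (log2 difference -1.52 ± 0.15, adjusted p = 6.5e-05, overlapping). Lipid transfer proteins were mixed, AT5G55450 being at 0.64, 0.98, 3.07 and 2.97 FPKM in Col-0 and 35.3 and 41.7 in Per-1 (log2 difference 3.87 ± 0.41, adjusted p = 1.2e-04, overlapping). AT1G62510 was at 576, 727, 249 and 166 FPKM in Col-0 and 73.7 and 84.7 in Per-1 (log2 difference -2.19 ± 0.51, adjusted p = 0.013, up to 0.093 without Per-1 replicate 1 or 2, overlapping). Cytochrome P450 genes gave 9 higher and 13 lower of 92. Glycosyltransferases of the UGT family, which attach sugars to hormones and metabolites, gave 3 and 6 of 37. UGT75B1 (AT1G05560) was at 59.2, 60, 151 and 108 FPKM in Col-0 and 15.1 and 9.52 in Per-1 (log2 difference -2.76 ± 0.48, adjusted p = 0.0028, overlapping). UGT74E2 (AT1G05680), which acts on indole-3-butyric acid, was at 66, 55.5, 109 and 80.5 FPKM in Col-0 and 21.7 and 15.4 in Per-1 (log2 difference -1.98 ± 0.50, adjusted p = 0.017, up to 0.13 without Per-1 replicate 1 or 2, 0.054 with Col-0 replicates 3 and 4 left out).

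Of NAC transcription factors 2 were higher and 6 lower of 32 in the strict set, against 4.90% and 9.43% of all tested genes. NAC016 (AT1G34180), which promotes leaf senescence, was at 0.23, 0.11, 0.43 and 0.18 FPKM in Col-0 and 10.4 and 9.56 in Per-1 (log2 difference 3.15 ± 0.20, adjusted p = 3.1e-06). NAC019 (AT1G52890), of abscisic acid and jasmonate responses, was at 27.7, 23.7, 20.7 and 11.4 FPKM in Col-0 and 3.6 and 2.92 in Per-1 (log2 difference -2.3 ± 0.46, adjusted p = 0.0063, up to 0.060 without Per-1 replicate 2). Among leaf growth regulators TCP3 (AT1G53230), a class II TCP factor that limits leaf growth, was at 5.98, 6.88, 11.7 and 14.1 FPKM in Col-0 and 1 and 1.11 in Per-1 (log2 difference -2.3 ± 0.28, adjusted p = 3.4e-04, overlapping). In the stomatal list OST1 (AT4G33950), the kinase that closes stomata under abscisic acid, was at 20.06, 22.6, 21.1 and 17.55 FPKM in Col-0 and 9.26 and 11.5 in Per-1 (log2 difference -0.91 ± 0.14, adjusted p = 0.0013). SCRM2 (AT1G12860), a bHLH factor of the stomatal lineage, was at 17.64, 19.9, 16.7 and 19.3 FPKM in Col-0 and 10.7 and 12.4 in Per-1 (log2 difference -0.63 ± 0.12, adjusted p = 0.0047, up to 0.066 without Per-1 replicate 1). Among photoreceptors PHYD (AT4G16250) was at 4.65, 4.34, 7.12 and 6.85 FPKM in Col-0 and 2.47 and 1.87 in Per-1 (log2 difference -1.07 ± 0.21, adjusted p = 0.0055, up to 0.066 without Per-1 replicate 2). PHYE (AT4G18130) was at 14.2, 15.1, 10.9 and 13.3 FPKM in Col-0 and 7.39 and 8.42 in Per-1 (log2 difference -0.68 ± 0.15, adjusted p = 0.0089, up to 0.091 without Per-1 replicate 1, overlapping), both below all Col-0 libraries. ROF2 (AT5G48570), a heat-induced immunophilin, was at 14.2, 12.2, 12 and 6.5 FPKM in Col-0 and 1.85 and 1.3 in Per-1 (log2 difference -2.21 ± 0.28, adjusted p = 4.5e-04).

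The remaining lists are given by their counts in the strict set, to be read against 4.90% higher and 9.43% lower of all tested genes. Leucine-rich repeat receptor kinases had 8 higher and 8 lower of 106, although 27 were lower in the full comparison. Proteases and their inhibitors had 8 and 9 of 101, and ABC transporters, which move lipids, hormones and toxins, 2 and 3 of 74. TRAF-like and MATH domain proteins had 3 higher and 4 lower of 30. Glutathione S-transferases, which conjugate toxins and metabolites, had 2 and 2 of 34, peroxidases 1 and 2 of 16, and WRKY factors 1 and 1 of 33. The water channels had 1 higher and 1 lower of 21, and the SAUR genes of auxin-driven growth 1 and 1 of 13. Light signalling had 2 and 3 of 27, chlorophyll and carotenoid synthesis 1 and 1 of 37, and cellulose and pectin genes 0 and 2 of 20. Heat shock genes had 0 higher and 2 lower of 23, senescence genes 0 and 1 of 17, and leaf growth regulators 1 and 3 of 28. In the list of reactive oxygen and glutathione genes limma called 0 of 24 (5 at an unadjusted p under 0.05). Plastid-encoded genes had 4 higher and 0 lower of 75 and mitochondrially encoded genes 2 and 1 of 20, and most transcripts of organelles lack the poly(A) tail on which the library kit selects. Of 4 tested transposable elements 1 was lower.

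**Figure D5:**
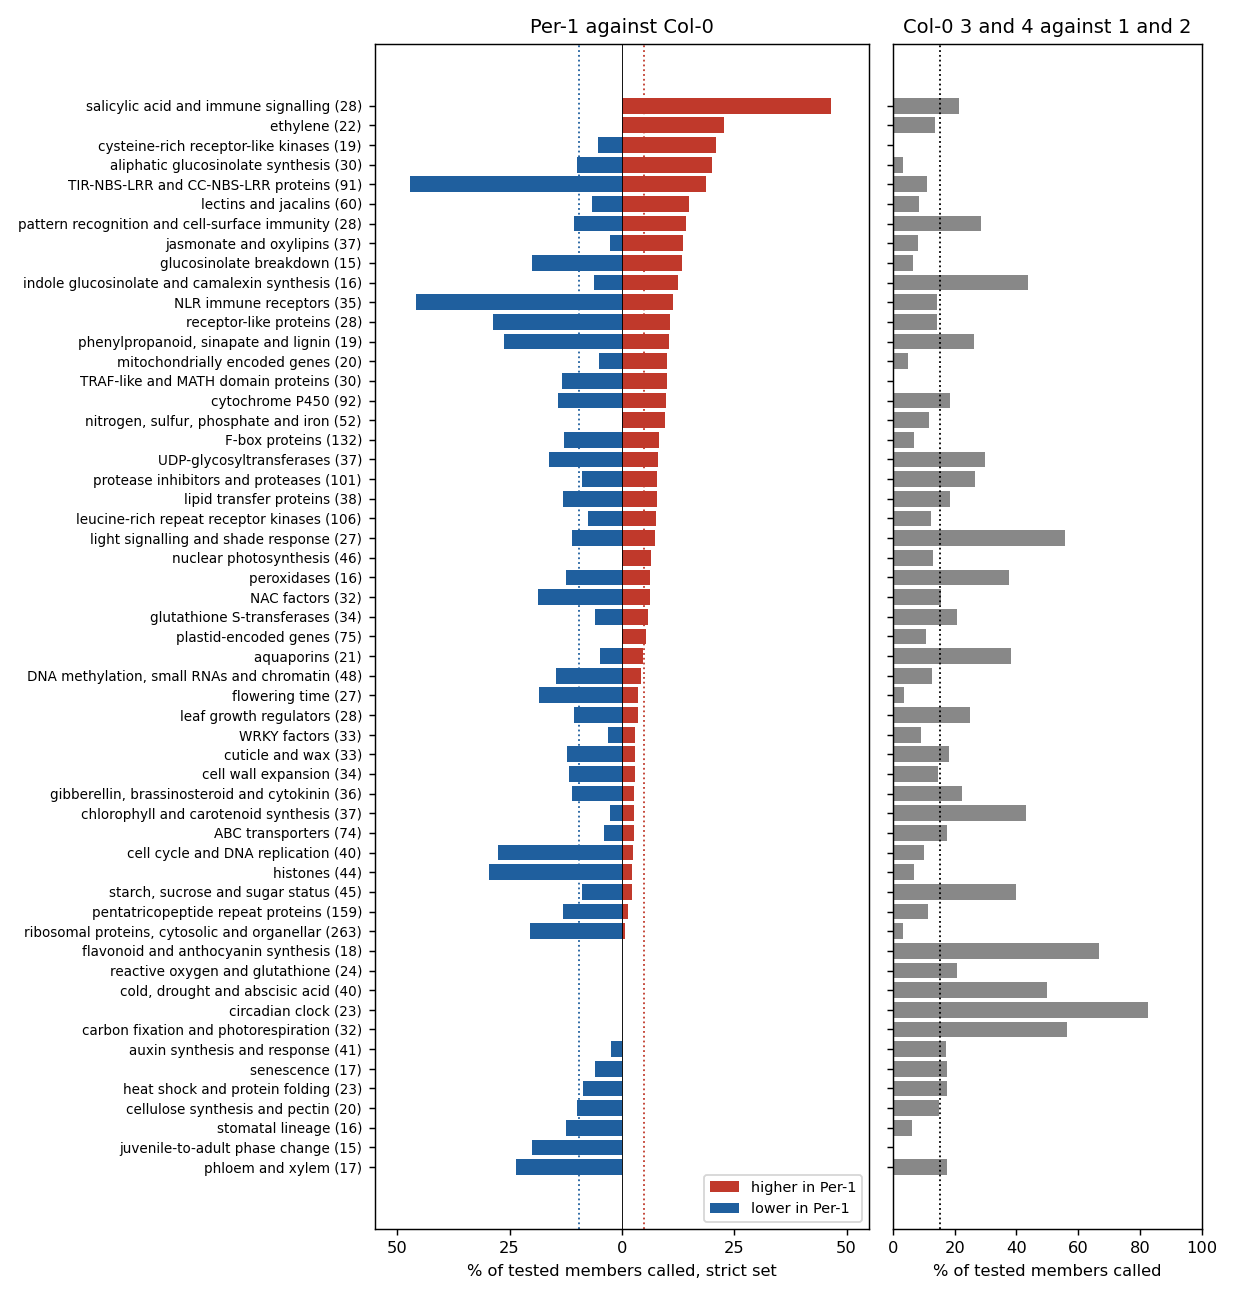
Share of each list's tested members in the strict set (left, in percent; red higher and blue lower in Per-1, dotted lines the shares over all tested genes, 4.90% and 9.43%) and share called between the Col-0 pairs (right, dotted line 15.1%), with the number tested in brackets. Salicylic acid genes have the longest red bar, the receptor lists the longest blue bars, and the circadian clock the longest grey bar with no bar on the left.

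In the circadian clock the Col-0 pairs stood far apart from each other. Of 23 tested, limma called 0 between Per-1 and the 4 Col-0 libraries (1 at an unadjusted p under 0.05). In the other comparisons 19 were called between the Col-0 pairs, and 14 were called in opposite directions against the pairs. In 16 of them both Per-1 values lay between the values of the Col-0 pairs, as in 1374 of all 16911 tested genes. CCA1 (AT2G46830), a morning-phased factor, was at 106, 116, 8.58 and 9.01 FPKM in Col-0 and 21.8 and 26.2 in Per-1 (log2 difference -0.41 ± 0.98, adjusted p = 0.78). LHY (AT1G01060), its partner, was at 50.6, 51.5, 1.57 and 1.85 FPKM in Col-0 and 6.05 and 5.84 in Per-1 (log2 difference -0.77 ± 1.18, adjusted p = 0.66). Evening-phased genes had the reverse order of the Col-0 pairs, with ELF4 (AT2G40080) at 3.14, 2.28, 139 and 93.3 FPKM in Col-0 and 5.45 and 5.83 in Per-1 (log2 difference -1.63 ± 1.39, adjusted p = 0.41). TOC1 (AT5G61380) was at 9.15, 5.95, 58.5 and 41.8 FPKM in Col-0 and 9.69 and 8.96 in Per-1 (log2 difference -1.0 ± 0.75, adjusted p = 0.35). FKF1 (AT1G68050), a photoreceptor of the photoperiod pathway, was at 2.22, 1.05, 52.9 and 55 FPKM in Col-0 and 7.79 and 6.17 in Per-1 (log2 difference -0.58 ± 1.25, adjusted p = 0.76, overlapping). The labels used here give no time of harvest.

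Some other lists were also often called between the Col-0 pairs. Carbon fixation and photorespiration had 18 of 32 called between the pairs and 0 in the strict set, although 2 were called in the full comparison: CP12-1 (AT2G47400) (log2 difference 0.77 ± 0.21, adjusted p = 0.026, up to 0.15 without Per-1 replicate 1 or 2, outside the strict set, 0.19 with quantile normalization, 0.055 with the 6 libraries alone, 0.055 without the filter) and PGLP1 (AT5G36700) (log2 difference -0.64 ± 0.16, adjusted p = 0.018, up to 0.14 without Per-1 replicate 1 or 2, outside the strict set, 0.059 with the 6 libraries alone). Cold, drought and abscisic acid genes had 20 of 40 called between the pairs, 1 higher and 2 lower in the full comparison and 0 in the strict set, with COR15A (AT2G42540), a cold-induced chloroplast protein, at 54.6, 43.1, 265 and 309 FPKM in Col-0 and 62.3 and 101 in Per-1. Its Per-1 values lay between those of the Col-0 pairs. Flavonoid genes had 12 of 18 called between the pairs, 1 higher and 4 lower in the full comparison and 0 in the strict set. Light signalling genes had 15 of 27 called between the pairs, and 2 higher and 3 lower in the strict set.

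The labelled tissue was checked against marker genes. Leaf mesophyll transcripts (8 genes of Rubisco, its activase, a carbonic anhydrase and antenna proteins) summed to 47737 to 61110 FPKM in Col-0 and 64579 to 67369 FPKM in Per-1, with the zeros of RBCS1A in Col-0 replicates 1 and 2. Shoot meristem markers passed the filter in 0 of 9 cases and summed to 0.08 to 0.19 FPKM in Col-0 and 0.26 to 0.28 FPKM in Per-1, with WUS, CLV3 and UFO at 0 in all 6 libraries. Root markers passed in 2 of 13, trichome markers in 2 of 9 and flower and seed markers in 1 of 12 cases, and limma called 0 of these 5 (0 at an unadjusted p under 0.05). Root markers summed to 12.02 to 19.95 FPKM in Col-0 and 11.9 to 12.2 FPKM in Per-1, trichome markers to 7.43 to 15.7 and 8.1 to 12.35 FPKM, and flower and seed markers to 2.82 to 3.97 and 3.19 to 4.11 FPKM. The 8 guard cell and epidermis markers summed to 161 to 176 FPKM in Col-0 and 134 to 143 FPKM in Per-1, and their part in the differences of cuticle and stomatal genes was not tested.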

How the data were processed

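The authors deposited 1 table of FPKM per gene for each library. Per the labels' protocols, RNA was extracted with the RNeasy plant mini kit and libraries were made with the TruSeq RNA kit v2. The submitters' processing notes name the build TAIR10, the tools edgeR 3.12.0 and Cufflinks 2.0.2, and TopHat2 2.0.8b (also as TopHat). Which of these made the FPKM values is not given in the sources used here. FPKM values are not counts, so no count model was used, and absolute depth is unknown.

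A gene entered the test if 2 or more of the 6 Col-0 and Per-1 libraries reached 1 FPKM (16911 genes). Tests were run on log2(FPKM + 1) with limma 3.58.1 in R 4.3.3, by moderated contrasts with a mean-variance trend. All 12 libraries of the series entered the fit, which left 7 residual degrees of freedom, so the spread is shared with the other groups. For contrasts with each Col-0 pair alone, and between the pairs, the pairs were separate groups, which left 6. P-values were adjusted by the Benjamini-Hochberg method over all tested genes. On simulated libraries with the same group sizes the fit recovered 74% of genes changed by 1 and 94% of genes changed by 2 on the log2 scale. It made 12 false calls among the unchanged genes of the 16911. All simulated libraries shared the Col-0 mean of each gene, with no difference between the Col-0 pairs and no overall shift. Only genes with a mean above 2 on the log2 scale were changed. These rates therefore do not give the error of the real comparison. Tables and figures were made in Python 3.11.15 with pandas 2.3.3 and matplotlib 3.10.9.

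The accessions compared, the gene lists and the genes were chosen with earlier results of these data known, and some list patterns and misassigned symbols were corrected after values were seen. Of the symbols in the 63 lists, 29 were ambiguous and 22 unresolved and were left out. Gene names, overlaps and neighbour order came from the RefSeq annotation of TAIR10.1, which held 31416 of the 34133 identifiers (2717 were not in it). No coordinates are given because the build may differ. The naming rule took the 15 largest rises and the 15 largest falls called against both Col-0 pairs (mean of at least 5 FPKM, no overlap), from each list the called genes of lowest adjusted p (5 at most), and a fixed set of 17 genes, 289 in all. Further genes that complete a family, pathway or cluster were named after their values were seen. The cytokinin and antenna protein genes are parts of longer lists, taken by the start of the symbol. Replicate numbers were tested as a block as an alternative. The alternatives were other scalings, filters, a pseudocount of 0.1, a fit without trend or of the 6 libraries alone, each Col-0 pair alone, overlapping genes left out, a minimum size of the difference, and leaving out each library.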

Additional observations from a re-analysis of the deposited data

Results flagged for a closer look

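The 4 Col-0 libraries were searched for a value that stands apart from the other 3 by a gap that exceeds Dixon's 95% critical share of the group's range, over the 166 genes whose values are given. There were 8 such genes, and chance flags about 1 in 20 groups. Col-0 replicate 3 stood apart in WRKY70 at 86.0 FPKM and in NSP5 at 204.66 FPKM. Replicate 4 did so in GAI at 26.3 FPKM, in EXPA5 at 13.8 FPKM, in FRI at 2.35 FPKM and in AT1G25155 at 0.04 FPKM. Replicate 2 did so in FAH1 at 57.0 FPKM, and replicate 1 in FLC at 0.26 FPKM. In each of these genes that was called, both Per-1 values lay outside the Col-0 range with that library included, as in nearly all called genes.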

How the results depend on the processing

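The counts depended on the settings as follows. The 4368 genes called became 2615 with a mean of at least 5 FPKM, 2840 without overlapping genes and 1175 with a log2 difference of at least 1, and 1872 to 3966 with 1 library left out. The 1026 higher genes became 1700 with median-ratio scaling, 1587 with quantile normalization, 490 with the mean of 5 FPKM, 655 without overlapping genes, 471 with the size limit and 568 to 999 with 1 library left out. The 3342 lower genes became 1611, 1537, 2125, 2185, 704 and 1304 to 2992 in the same order. The genes called the same way against both Col-0 pairs, 3128 in all, became 1888 with the mean of 5 FPKM, 2002 without overlapping genes, 886 with the size limit and 1818 to 2231 with 1 library left out. Genes called between the Col-0 pairs became 1687 without overlapping genes, and 1089 to 2215 with 1 library left out. The filters and the size limit by their construction leave fewer genes. The scalings moved the median log2 difference over all tested genes from -0.19 to -0.01 (median-ratio) and -0.02 (quantile). Why that median lies at -0.19 without scaling was not tested. Against Col-0 replicates 1 and 2 alone 4938 genes were called and against replicates 3 and 4 alone 5443.

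Single genes changed direction as follows. FRI had a log2 difference of 0.11 with median-ratio scaling and 0.15 with quantile normalization. Against Col-0 replicates 3 and 4 alone it was -0.13 for RBCS1A, 1.35 for CCA1 and 1.36 for LHY. Against replicates 1 and 2 alone, and with the replicate block, it was 1.63 for FKF1, 0.85 for ELF4, 0.70 for COR15A and 0.30 for TOC1. With 1 library left out it ranged from -1.01 to 0.20 for CCA1 and from -1.43 to 0.16 for FKF1. None of these genes was called in the full comparison. Of 152 genes with values in the text that were called there, 56 lost the call without a Per-1 library and 3 of these also without a Col-0 library. Of the same 152 genes, 11 lost it in the fit of the 6 libraries alone, 7 with quantile normalization, 4 with median-ratio scaling, 3 without the filter, and 5 or 2 with Col-0 replicates 3 and 4 or 1 and 2 left out. Genes of the strict set cannot by its definition lose the call with median-ratio scaling, and 0 of those 4 belong to it. That count is therefore no measure of how calls hold under this scaling.

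Whether the replicate numbers pair the samples could not be decided. Deviations from the group means in Per-1 replicate 1 correlated at 0.03, -0.21, 0.30 and -0.11 with those in Col-0 replicates 1 to 4. With 2 Per-1 libraries, replicate 2 has the same values with the opposite sign. The Col-0 deviations also carry the difference between the pairs. With the number as a block, 4287 genes were called, 1259 higher and 3028 lower, and 5 of the 152 genes lost the call. The other Col-0 numbers have no Per-1 library, so the block takes the log2 difference from Col-0 replicates 1 and 2 only. The median over all tested genes was -0.17 both with the block and against these replicates alone, and FLC was at 5.44 in both. The block is therefore no separate check of the log2 differences and cannot decide on pairing. No paired analysis was possible for the Col-0 pairs or for calls against both pairs because the numbers coincide with the pairs. With 2 Per-1 libraries and no counts, small differences and low genes are the least certain, and an accession difference in mapping to the reference cannot be separated from one in transcript level.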
